A study of Rattus norvegicus with 48 samples.

Results

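The lungs described here came from 12 rats killed 28 days or 1 day after 1 exposure to oil vapor, 6 animals at each time, and were 12 of the 48 lung libraries of a study of inhaled oil vapor. Members were chosen by schedule, treatment and day as given in the labels, without use of any measured value. All rats were male Sprague-Dawley, an outbred stock with no genetic change, and weighed about 200 to 250 g at the outset. They sat in whole-body chambers at an oil vapor concentration of 300 ppm or in filtered air for 6 h. The oil vapor lungs of the single schedule were set beside 12 air lungs of that schedule and beside 12 oil vapor lungs of a repeated schedule, all from other animals. The repeated schedule ran for 6 h per day on 4 days per week for 4 weeks, which makes 16 exposure days. RNA was measured by sequencing of lung tissue after depletion of ribosomal RNA, 1 library per animal. Per the labels the rats were housed in pairs, but which animals shared a cage was not given in the sources used here. The comparison asks how the lung transcriptome differed between 28 days and 1 day after the exposure. Rats at 28 days had also aged by the days between the collections, so time since exposure, age and growth, and the day of tissue collection cannot be told apart within the oil vapor lungs.

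Lungs of young rats still enlarge after the alveoli have formed. Growth needs division of endothelial, epithelial and mesenchymal cells and the laying down of extracellular matrix. Fibrillar collagens give the lung its tensile strength, elastin fibers its recoil, and the basement membrane separates the capillary from the alveolar epithelium. Cells enter mitosis when cyclin-dependent kinase 1 is active with its cyclins, and many genes of mitosis are held off in resting cells by repressor complexes that bind their promoters. Lung tissue also carries detoxifying enzymes such as cytochromes P450 and flavin monooxygenases, and responds to circulating glucocorticoids, the adrenal steroids.

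Library totals were 4.22 to 6.08 M counts in the oil vapor lungs at 28 days and 4.01 to 7.16 M at 1 day, with 18495 to 19202 and 18502 to 19809 genes detected. Levels are given in CPM, counts scaled to the library total and its normalization factor. A count of 3, the level that a count of 0 allows, was 0.412 to 0.736 CPM in these libraries, counting error only. Lung identity was clear from Sftpc, a surfactant gene of type 2 alveolar epithelium, with 5228 to 6511 CPM (median 5908) at 28 days and 5149 to 6382 CPM (median 5509.6) at 1 day, and from Ager, a receptor of alveolar type 1 cells, with 1327 to 1639 CPM and 1360.5 to 1612 CPM. Transcripts of other tissues were unequal between libraries. Summed spleen and bone marrow transcripts were 102.9 to 602.4 CPM at 28 days and 140.4 to 753.8 CPM in 5 of the animals at 1 day, with 6883 CPM in animal 5. Most of this sum is the erythroid gene Alas2, with 5996 CPM in animal 5 and 106 to 622 CPM in the others at 1 day. The genes of this list that were tested are all in the erythroid list too, so the marrow and erythroid sums are not separate measures. Summed liver transcripts were 298.9 to 344.1 CPM at 28 days, whereas at 1 day animals 5, 7 and 16 had 632.7, 846.2 and 750.7 CPM and the other 3 had 295.8 to 340.0 CPM. Summed erythroid transcripts were 1603 to 3384 CPM at 28 days and 3444 to 18050 CPM at 1 day. The erythroid sums differed by -1.26 on the log2 scale (28 days minus 1 day; two-sided exact permutation p = 0.00216, the smallest that 6 against 6 animals allow; adjusted p = 0.0108 over 5 sums tested). The other 4 sums did not pass, with exact permutation p-values of 0.0736 for liver, 0.119 for marrow, 0.11 for brain and nerve and 0.658 for heart. Counts of the erythroid gene Alas2 also tracked across animals that were not the same. When the animals of each group were taken in order of their number and set beside those of the other schedule at the same treatment and day, the counts in the single schedule were 0.722 to 1.03 times those in the repeated schedule in all 24 pairs, while library totals were 0.636 to 3.09 times. The Alas2 counts of the single schedule themselves ran from 402 to 27026. For the liver gene Alb the ratio was 0.373 to 1.35. The source of these transcripts and their part in the comparison of schedules was not tested. Total counts and several lists and genes are given with and without animals 5, 7 and 16. Other values are with all animals.

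In the oil vapor lungs at 28 days, genes of cell division and of the extracellular matrix were among those lower than at 1 day, and Txnip, Inmt and flavin monooxygenase genes were among those higher. Of 14820 genes tested with edgeR's quasi-likelihood test, 1398 passed a Benjamini-Hochberg adjusted p of 0.05 (9.43%). At 28 days 738 were lower (4.98%) and 660 were higher (4.45%). At an unadjusted p below 0.05 there were 3622 genes. The median log2 fold change (28 days over 1 day) of all genes tested was -0.00184, a centre that the normalization sets. The values of all 6 animals at 28 days lay below all 6 at 1 day in 390 genes (2.63%) and above them in 333 (2.25%). Most changes were small. With a minimum of 1.5-fold built into the test 20 genes passed, 18 of them lower and 2 higher at 28 days, Inmt among the higher. With animals 5, 7 and 16 left out 533 genes passed, 319 lower and 214 higher. In bulk tissue, fewer cells of a type and less RNA per cell cannot be told apart.

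**Figure D1:**
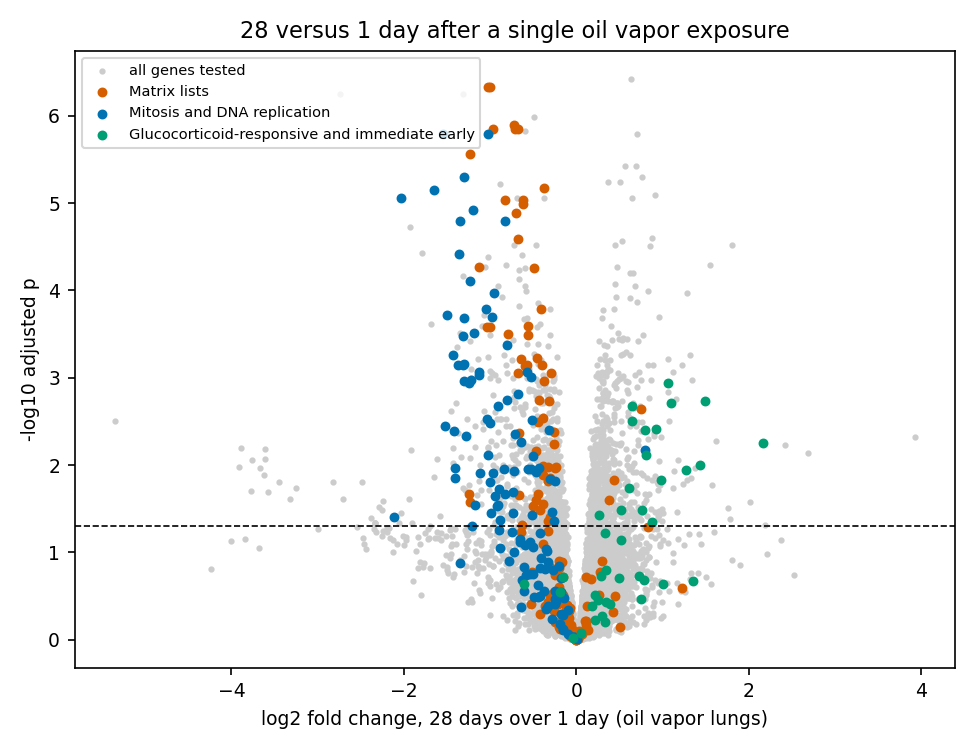
Each point is a gene tested between oil vapor lungs at 28 days and at 1 day (6 animals each), with the log2 fold change on the x axis and -log10 of the adjusted p on the y axis; the dashed line marks 0.05. Matrix genes (orange) and mitosis and DNA replication genes (blue) lie mostly at the left, 58 of 136 and 71 of 126 of them lower past the line, and glucocorticoid-responsive and immediate early genes (green) lie mostly at the right.

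Genes of mitosis and cytokinesis were lower at 28 days as a group. The count table held 77 of the listed genes, of which 74 were tested, 49 fell and 0 rose, and the median log2 fold change was -0.93, against -0.00184 over all genes. In 33 of them the 6 animals at 28 days lay below all 6 at 1 day, as in 2.63% of all genes tested. Cdk1, the kinase that drives cells into mitosis, had 2.15 to 5.296 CPM (median 3.78) at 28 days and 10.04 to 14.2 CPM (median 11.5) at 1 day, with no overlap. Its log2 fold change was -1.55 (SE 0.17) with an adjusted p of 1.61e-06. Mki67, the nuclear protein widely used to mark dividing cells, had 45.6 to 62.2 CPM (median 49.3) at 28 days, against 85.1 to 123 CPM (median 109) at 1 day. It averaged 51.4 ± 6.29 and 106 ± 17.1 CPM (SD, n = 6 each), and its log2 fold change was -1.03 (SE 0.11), adjusted p = 1.61e-06 by edgeR. Top2a, the topoisomerase that untangles chromosomes before they part, had 17.7 to 28.8 CPM (median 19.99) at 28 days and 39.8 to 68.7 CPM (median 58.4) at 1 day, a log2 fold change of -1.30 (SE 0.15). The groups did not overlap for Mki67 or Top2a either.

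The promoters of these 3 genes and of Kif20a, a kinesin gene of the same list that also fell, are shown because many mitosis genes share promoter elements, though not every one holds both. The cell cycle homology region (CHR) and the CCAAT box are known elements of such promoters. The CHR was searched as TTTGAA, which on the other strand reads as TTCAAA, and as TTCGAA, which reads alike on both. The CCAAT box was searched as CCAAT, with ATTGG for the other strand. Matches are in capitals. Each window is the 150 bases before the gene's start in the RefSeq annotation of the rat build GRCr8, 5′ to 3′ on the gene's strand. The windows are chr20:19265143-19265292 on the plus strand for Cdk1, chr1:199952594-199952743 on the minus strand for Mki67, chr10:84473094-84473243 on the minus strand for Top2a, chr18:26504272-26504421 on the plus strand for Kif20a and chr3:133203391-133203540 on the minus strand for Fbn1. That build differs from the one used for the counts. The promoter of Fbn1, the main protein of elastic fiber microfibrils, is shown for a matrix gene. In Mki67 a CHR match and a CCAAT match overlap.
Cdk1: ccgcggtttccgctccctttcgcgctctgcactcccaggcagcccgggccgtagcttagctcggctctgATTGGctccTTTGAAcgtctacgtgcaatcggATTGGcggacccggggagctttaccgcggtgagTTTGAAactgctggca
Mki67: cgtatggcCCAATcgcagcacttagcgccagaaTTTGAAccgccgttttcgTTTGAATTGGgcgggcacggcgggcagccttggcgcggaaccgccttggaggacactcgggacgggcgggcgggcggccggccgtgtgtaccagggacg
Top2a: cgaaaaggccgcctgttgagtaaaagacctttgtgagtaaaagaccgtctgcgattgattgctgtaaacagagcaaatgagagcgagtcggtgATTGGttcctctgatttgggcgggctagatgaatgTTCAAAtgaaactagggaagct
Kif20a: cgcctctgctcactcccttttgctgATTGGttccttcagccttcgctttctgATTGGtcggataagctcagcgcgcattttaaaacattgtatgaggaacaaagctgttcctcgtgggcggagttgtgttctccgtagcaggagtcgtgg
Fbn1: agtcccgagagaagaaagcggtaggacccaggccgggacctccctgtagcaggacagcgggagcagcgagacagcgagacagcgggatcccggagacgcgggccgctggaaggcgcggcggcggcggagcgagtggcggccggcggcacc
The Cdk1 and Mki67 windows each hold 2 CHR and 2 CCAAT matches, the Top2a window 1 of each, the Kif20a window 0 CHR and 2 CCAAT matches, and the Fbn1 window 0 of either.

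Over the 250 bases before the start, 41.8% of the 67 mitosis genes with a promoter in the table held both elements, against 6.22% of all 27457 promoters. A CHR match was present in 50.7% of the mitosis promoters and in 17.3% of all, and a CCAAT match in 65.7% and 34.3%. Among the 49 mitosis genes that fell, 42 had a promoter and 42.9% of these held both. Of 123 matrix gene promoters 1.63% held both. These are letter matches and not measured binding.

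Kif20a, needed for the last step of cell division, had 2.27 to 5.62 CPM (median 3.76) at 28 days and 8.43 to 16.1 CPM (median 11.2) at 1 day, a log2 fold change of -1.66 (SE 0.20). Cdca3, which helps trigger entry into mitosis, had 0.239 to 1.503 CPM (median 1.29) at 28 days and 2.76 to 6.14 CPM (median 4.85) at 1 day, close to the limit that 3 counts set. Iqgap3, a scaffold protein expressed in dividing cells, had a log2 fold change of -1.19 (SE 0.15) and means of 5.68 ± 0.515 and 13.1 ± 1.05 CPM at 28 days and 1 day. Fam64a, which regulates the metaphase to anaphase step, was near the floor at 28 days with 0.378 to 0.827 CPM, against 2.88 to 6.36 CPM at 1 day, and a fitted log2 fold change of -2.74 (SE 0.27) at such counts depends on the prior count. Among 52 DNA replication genes tested 22 fell and 1 rose, with a median of -0.42. Ccne2, a cyclin of the entry into DNA synthesis, had 1.99 to 3.31 CPM (median 2.45) at 28 days and 3.33 to 7.61 CPM (median 5.97) at 1 day (log2 fold change -1.13 (SE 0.21)). Mcm6, a subunit of the replicative helicase, had 13.1 to 19.5 CPM and 19.3 to 26.1 CPM at these times, overlapping at 1 animal of each day (log2 fold change -0.52 (SE 0.097)). Brca1, a DNA repair protein, was 10.04 ± 0.4905 CPM at 28 days and 16.1 ± 3.06 CPM at 1 day, with a log2 fold change of -0.67 (SE 0.13). The gene that rose was Clspn, a checkpoint adaptor at the replication fork, named after its value was seen, with 8.86 to 17.7 CPM (median 14.2) at 28 days and 6.5 to 9.25 CPM (median 8.13) at 1 day (log2 fold change 0.80 (SE 0.19), edgeR adjusted p = 0.00668). Neither Clspn nor Brca1 passed without animals 5, 7 and 16, when their log2 fold changes were 0.75 and -0.50.

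The cell division genes were also read against the marrow transcripts, because blood-forming tissue divides rapidly. That sum is mostly the erythroid gene Alas2, so it follows erythroid RNA and does not by itself show dividing marrow tissue. Summed mitosis transcripts were 643.9 to 734.7 CPM at 28 days and 879.5 to 1645 CPM at 1 day, without overlap. Animal 5 at 1 day had the highest value of both sums, with 1645 CPM of mitosis and 6883 CPM of marrow transcripts. Animal 7 at 1 day had 1221 CPM of mitosis transcripts, above every animal at 28 days, with 140.4 CPM of marrow transcripts, which lay within the 102.9 to 602.4 CPM of the 28-day lungs. Animals 6, 14 and 16 had 637.4 to 753.8 CPM of marrow transcripts, above that range. The part of marrow tissue in the mitosis difference was not tested. Without animal 5, 47 of 74 mitosis genes still passed as lower, and without animals 5, 7 and 16, 32 of 75, with medians of -0.91 and -0.86. For DNA replication the counts were 19 of 53 and 6 of 54, with medians of -0.41 and -0.43, against -0.42 with all animals. Animal 5 stood far above the other animals at 1 day in a further 3 genes, with 45.7 CPM of Ube2c, 47.3 CPM of Tk1 and 221 CPM of E2f2. Without animal 5 none of the 3 passed, with adjusted p-values of 0.338, 0.0508 and 0.292 by edgeR. Their log2 fold changes were then -0.77, -0.90 and -0.48, against -2.12, -1.40 and -1.21 with all animals. These genes were named after their values were seen.

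**Figure D2:**
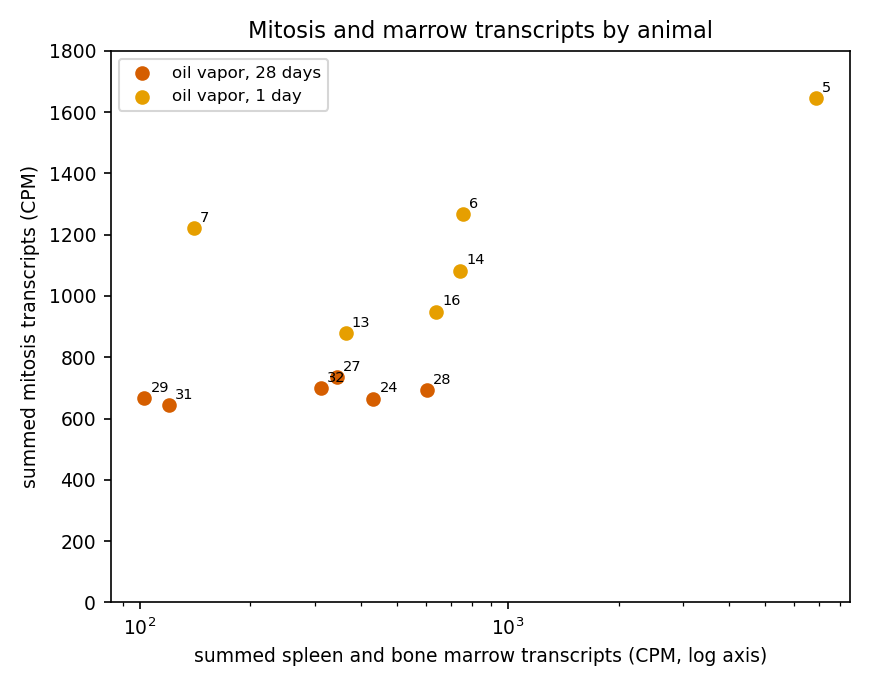
Summed mitosis transcripts (y axis, CPM) are plotted against summed spleen and bone marrow transcripts (x axis, CPM, log scale) for the 12 oil vapor lungs, with animal numbers beside the points. The sum on the x axis is mostly the erythroid gene Alas2. All 6 lungs at 28 days lie at or below 734.7 CPM of mitosis transcripts and all 6 at 1 day at or above 879.5 CPM. Animals 7 and 13 have marrow sums within the range of the 28-day lungs, and the other 1-day animals lie above it.

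Extracellular matrix genes were lower at 28 days across every class examined. Over 6 lists counted with each gene once, 136 of 170 genes were tested, 58 fell and 3 rose, and the median was -0.26. In 39 of them all 6 animals at 28 days lay below all 6 at 1 day, as in 2.63% of all genes tested. With animals 5, 7 and 16 left out 42 of 138 fell and 1 rose, with a median of -0.27. The chief fibrillar collagens led the collagen list, of which 8 of 25 tested genes fell and 0 rose. Col3a1, the collagen of distensible tissue, had 2064 to 2889.6 CPM (median 2275) at 28 days and 4138 to 5605 CPM (median 4399) at 1 day, with no overlap. Its means were 2332 ± 305 and 4564 ± 535 CPM (SD, n = 6 each), a log2 fold change of -0.97 (SE 0.10) and an edgeR adjusted p of 1.42e-06. Col1a1, a chain of the main collagen of scar and bone, had 120.4 to 191 CPM (median 167) at 28 days, against 236 to 382 CPM (median 341) at 1 day (log2 fold change -0.997 (SE 0.16)). Col6a3 and Col5a1, of beaded filaments and of fibril cores, changed less, with log2 fold changes of -0.46 (SE 0.08) and -0.65 (SE 0.11).

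Of 18 genes that modify and secure collagen 7 fell and 2 rose. Sparc, a collagen-binding secreted protein, had 1732 to 2299.6 CPM (median 1912) at 28 days and 2874 to 3340.0 CPM (median 3104) at 1 day, with a log2 fold change of -0.67 (SE 0.071). Adamts2, which trims the end of procollagen, averaged 75.4 ± 7.89 CPM at 28 days and 121 ± 15.96 CPM at 1 day, and Fkbp10, a collagen chaperone, 30.2 ± 2.75 and 44.9 ± 4.29 CPM. The 2 that rose were P4ha1 and P4ha2, catalytic subunits of collagen prolyl hydroxylase, with log2 fold changes of 0.43 (SE 0.11) and 0.38 (SE 0.11); neither passed with animals 5, 7 and 16 left out, when the values were 0.43 and 0.37.

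Elastic fiber genes had the lowest median of the 6 matrix lists. Of 20 tested 11 fell and 0 rose, with a median of -0.36. Eln, the elastin precursor, had 486 to 568 CPM (median 541) at 28 days and 914 to 1497 CPM (median 1323) at 1 day, with a log2 fold change of -1.23 (SE 0.14) and an adjusted p of 2.77e-06 by edgeR. All 6 animals at 28 days lay below all 6 at 1 day. Loxl2, an enzyme that cross-links collagen and elastin, had 22.8 to 33.1 CPM (median 26.1) at 28 days and 46.1 to 64.7 CPM (median 52.4) at 1 day, and its log2 fold change was -0.999 (SE 0.094) (adjusted p = 4.73e-07 by edgeR). Its relative Loxl1 had a log2 fold change of -0.83 (SE 0.10). The microfibril genes Fbn1 and Ltbp2 averaged 523 ± 44.96 and 387 ± 52.4 CPM at 28 days, against 865 ± 97.9 and 595 ± 40.1 CPM at 1 day.

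Of 22 matricellular protein and proteoglycan genes tested 10 fell and 1 rose. Tnc, a glycoprotein of growing and repairing tissue, had 117 to 205 CPM (median 142) at 28 days and 189 to 404 CPM (median 312) at 1 day, where the groups overlapped at 1 animal of each day. Thbs2, a secreted regulator of the cell surface and matrix, had 8.89 to 16.1 CPM (median 12.03) at 28 days and 19.3 to 34.1 CPM (median 25.99) at 1 day, with a log2 fold change of -1.13 (SE 0.16). Dcn, a proteoglycan that coats collagen fibrils, was the one that rose, with 133 to 237 CPM (median 146) at 28 days and 77.3 to 124 CPM (median 94.6) at 1 day (log2 fold change 0.75 (SE 0.15), edgeR adjusted p = 0.00227). Of 24 basement membrane genes 11 fell and 0 rose. Nid1, which links laminin to collagen networks, had 256 to 346 CPM (median 267) at 28 days and 411 to 514 CPM (median 457) at 1 day. The laminin chain Lamc1 had a log2 fold change of -0.37 (SE 0.045) and the collagen chains Col4a5 and Col4a2 of -0.49 (SE 0.07) and -0.56 (SE 0.09).

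Of 27 genes of matrix proteases and their inhibitors tested 11 fell and 0 rose. Adamts17, a secreted metalloprotease, had the smallest p of the genes that fell, with an edgeR adjusted p of 4.73e-07. It had 37.5 to 55.9 CPM (median 48.8) at 28 days and 88.4 to 104 CPM (median 98.7) at 1 day, and a log2 fold change of -1.03 (SE 0.096). Mmp14, a membrane-bound collagenase, had 67.9 to 95.1 CPM (median 82.8) at 28 days and 104 to 148 CPM (median 126) at 1 day. Genes outside these lists fell as well. Scn3b, an auxiliary subunit of sodium channels, had 66.8 to 100.3 CPM (median 77.8) at 28 days and 187 to 219 CPM (median 197) at 1 day, with a log2 fold change of -1.31 (SE 0.13). Pxdn, a peroxidase that cross-links basement membrane collagen, averaged 527 ± 24.7 and 741 ± 50.1 CPM, Fstl1, a secreted glycoprotein, 192 ± 16.7 and 291 ± 28.9 CPM, and Igsf10 109 ± 16.7 and 201 ± 27.95 CPM at 28 days and 1 day.

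Of 20 imprinted and growth genes tested, 2 fell and 1 rose, where 4.98% of all genes fell and 4.45% rose. Mest, an imprinted gene abundant in fetal tissue, had 1.45 to 4.78 CPM (median 3.67) at 28 days and 7.32 to 16.3 CPM (median 12.01) at 1 day, a log2 fold change of -1.79 (SE 0.25). Igf1, the growth factor, had 164 to 250.3 CPM (median 203) at 28 days and 224 to 299 CPM (median 266) at 1 day, overlapping, with a log2 fold change of -0.38 (SE 0.095), and its receptor gene Igf1r one of 0.30 (SE 0.084). Igf1r did not pass without animals 5, 7 and 16, with a log2 fold change of 0.30. In that setting 3 of 21 genes of the list fell and 0 rose.

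**Figure D3:**
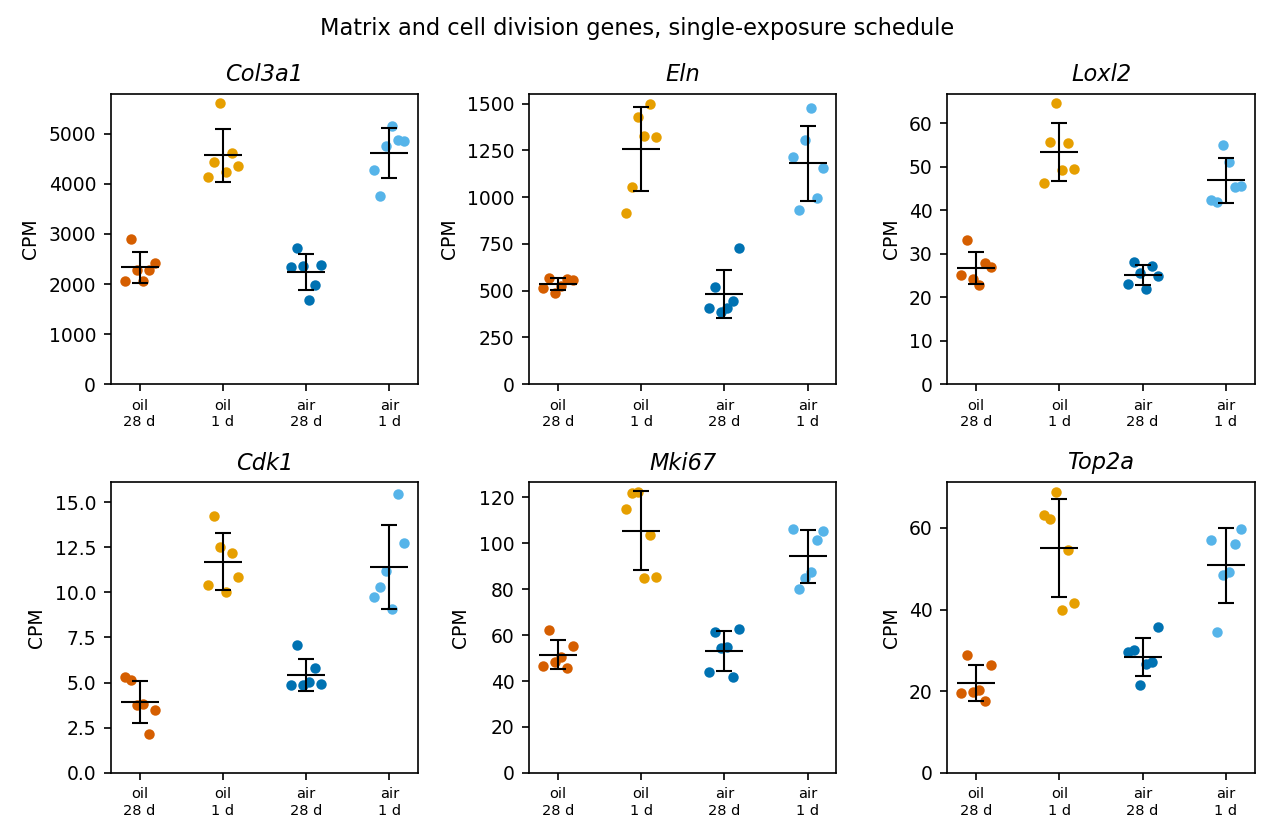
Each point is 1 animal (y axis, CPM from 0), with the mean and SD of 6 animals as bars, for oil vapor lungs at 28 days and 1 day and air lungs at 28 days and 1 day. All 6 oil vapor animals at 28 days lie below all 6 at 1 day for Col3a1, Eln, Loxl2, Cdk1, Mki67 and Top2a, and the air lungs show the same direction.

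Among genes higher at 28 days, Txnip, a thioredoxin-binding protein that limits glucose uptake, had the smallest adjusted p of all genes, 3.77e-07 by edgeR. It had 1036 to 1188 CPM (median 1066) at 28 days and 597 to 749.9 CPM (median 704) at 1 day, with no overlap and a log2 fold change of 0.64 (SE 0.056). Gpr146, a G protein-coupled receptor, had 112 to 144 CPM (median 134) at 28 days and 76.8 to 84.3 CPM (median 80.1) at 1 day. Inmt, a methyltransferase for indoles abundant in lung fibroblasts, had 49.6 to 142 CPM (median 90.6) at 28 days and 18.3 to 38.8 CPM (median 24.7) at 1 day, a log2 fold change of 1.801 (SE 0.24). Inmt varied widely among animals at 28 days, but all lay above those at 1 day. Membrane receptors in this set included S1pr1, the endothelial receptor for sphingosine-1-phosphate, with 183 to 267 CPM (median 242) and 138 to 159.7 CPM (median 149.8) at 28 days and 1 day, and Tgfbr3, a co-receptor for TGF-β, with means of 186 ± 13.96 and 136 ± 10.6 CPM. Lrrc32, which presents latent TGF-β, had 34.4 to 51.1 CPM (median 38.8) at 28 days and 18.2 to 24.6 CPM (median 21.1) at 1 day. Scnn1a, the α subunit of the epithelial sodium channel that clears alveolar fluid, had 148 to 198 CPM (median 166) at 28 days, against 75.7 to 106 CPM (median 96.9) at 1 day, and a log2 fold change of 0.86 (SE 0.12). The transcription factor Klf5 and the survival protein Mcl1 had log2 fold changes of 0.87 (SE 0.12) and 0.45 (SE 0.06). Smaller steps with tight groups were seen in Arhgef28, Gprin3, Jade2 and Syne1-2, whose log2 fold changes were 0.50, 0.52, 0.47 and 0.37.

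Detoxifying enzymes were higher more often than lower. Of 32 phase 1 and aryl hydrocarbon receptor genes tested 11 rose and 4 fell, with a median of 0.27. The flavin monooxygenase genes Fmo1 and Fmo2 averaged 280.2 ± 37.8 and 799 ± 135 CPM at 28 days, against 187 ± 23.4 and 489 ± 79.9 CPM at 1 day, both rising. Cyp4b1, a cytochrome P450 of club cells and endothelium, had 382 to 471 CPM (median 441) at 28 days and 269 to 324 CPM (median 292) at 1 day, with a log2 fold change of 0.56 (SE 0.064). Those that fell included Ahr, the receptor for aromatic hydrocarbons, with 149.6 to 206 CPM (median 173) and 206 to 260.5 CPM (median 222) at 28 days and 1 day, adjacent but without overlap, and its best-known target Cyp1a1, with 3.19 to 16.4 CPM (median 10.1) at 28 days and 16.5 to 36.7 CPM (median 25.4) at 1 day. With animals 5, 7 and 16 left out 6 of 32 rose and 1 fell. Cyp1a1 did not pass in that setting, with a log2 fold change of -1.10, against -1.34 with all animals. Of 23 conjugating enzymes 3 rose, Inmt, the sulfotransferase Sult1a1 (log2 fold change 0.71 (SE 0.11)) and the glutathione transferase Gstm7 (0.67 (SE 0.18)), and 0 fell. Gstm7 did not pass without animals 5, 7 and 16, with a log2 fold change of 0.65, and 2 of 23 rose. Of 26 genes regulated by NRF2, the oxidative stress factor, 1 fell and 0 rose, against 4.98% and 4.45% of all genes.

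Genes that respond to glucocorticoids were higher. Of 17 tested 11 rose and 0 fell, with a median of 0.80. Dusp1, a phosphatase that turns off stress kinases, had 178 to 239.5 CPM (median 218) at 28 days and 88.4 to 114 CPM (median 100.1) at 1 day, with a log2 fold change of 1.07 (SE 0.20) and an adjusted p of 0.00115 by edgeR. Per1, a clock repressor that is also induced by glucocorticoids, had 105 to 195 CPM (median 162) at 28 days and 35.7 to 82.3 CPM (median 53.6) at 1 day, a log2 fold change of 1.49 (SE 0.30). Zbtb16, a transcription factor strongly induced by these steroids, had 43.04 to 156 CPM (median 105) at 28 days and 11.8 to 41.8 CPM (median 18.97) at 1 day, and a log2 fold change of 2.17 (SE 0.49). For each of these 3 genes every animal at 28 days lay above every animal at 1 day. Cebpd, a transcription factor, and Tsc22d3, an anti-inflammatory target, averaged 74.3 ± 24.1 and 234 ± 62.5 CPM at 28 days and 34.5 ± 6.94 and 134 ± 14.01 CPM at 1 day. The number that rose was 9 without animal 5, 6 without animals 5, 7 and 16, and 4 when scores of liver, heart and marrow transcripts were added to the model. The medians were 0.83, 0.91 and 0.66 under these settings, against 0.80 with all animals and no scores.

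Immediate early genes, which respond within minutes to stimulation, and clock genes included several that rose. Of 24 immediate early genes 7 rose and 0 fell, with a median of 0.45. Klf2, a shear-responsive factor of endothelium, had 89.3 to 106 CPM (median 99.2) at 28 days and 38.8 to 72.01 CPM (median 57.9) at 1 day, and Klf4 126 to 196 CPM (median 163) and 91.2 to 112 CPM (median 106). Nr4a3, a nuclear receptor, had 3.28 to 7.57 CPM (median 5.79) at 28 days and 1.06 to 3.44 CPM (median 2.295) at 1 day, overlapping at 1 animal of each day. With the scores added 13 of this list rose, and with 3 animals out 4 of 25. Nr4a3 did not pass without animals 5, 7 and 16, with a log2 fold change of 1.35, against 1.27 with all animals. Of 20 clock genes 3 rose, Per1, Tef and Rora, and 0 fell. Tef and Rora had log2 fold changes of 0.36 (SE 0.076) and 0.22 (SE 0.051). Rora did not pass without animals 5, 7 and 16, with a log2 fold change of 0.18, and 2 clock genes rose. The hour of tissue collection was not given in the sources used here, and its part in these results was not tested.

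**Figure D4:**
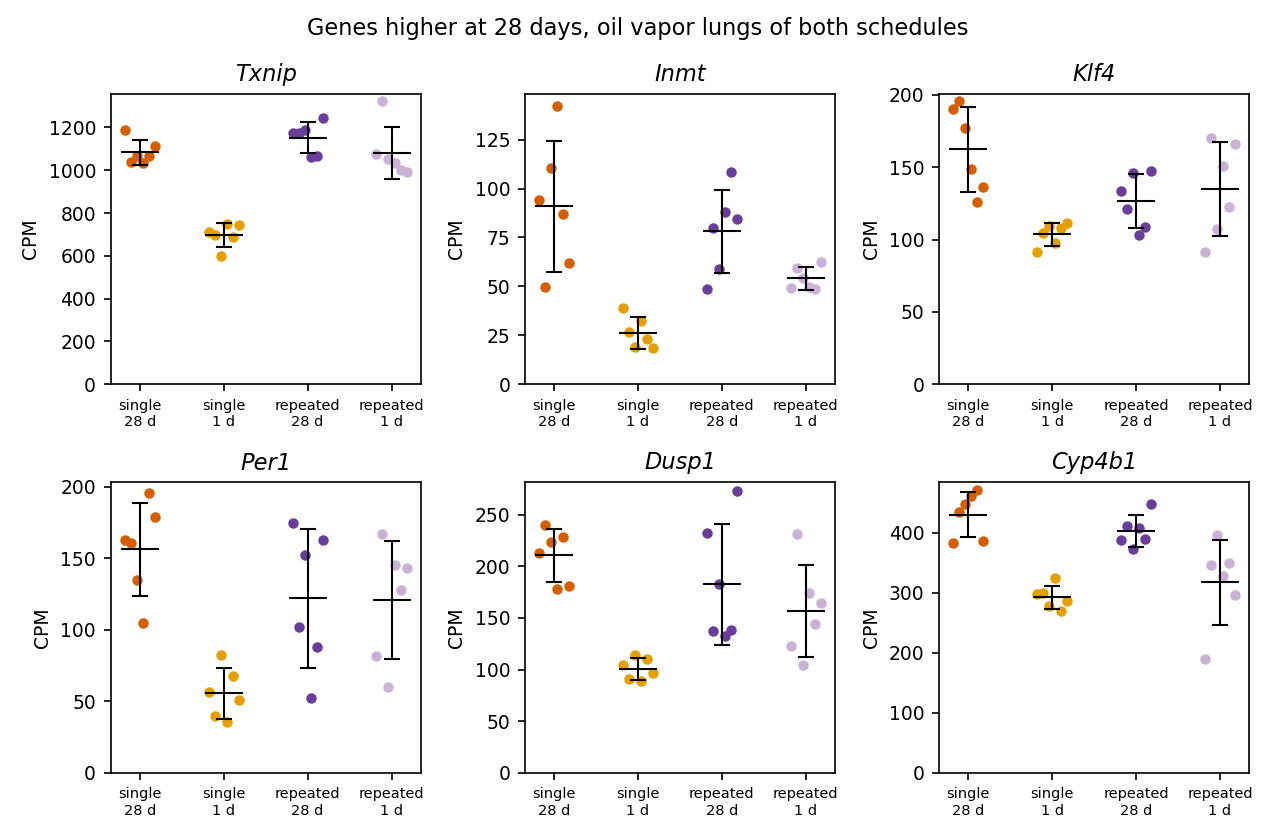
Each point is 1 oil vapor animal (y axis, CPM from 0), with the mean and SD of 6 animals as bars, at 28 days and 1 day of the single schedule and at 28 days and 1 day of the repeated schedule. Single-schedule animals at 28 days lie above those at 1 day for Txnip, Inmt, Klf4, Per1, Dusp1 and Cyp4b1, and for Klf4 the repeated schedule has means of 127 CPM at 28 days and 135 CPM at 1 day.

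Of 18 alveolar type 2 genes 1 rose and 0 fell, with a median of 0.074. Over all genes tested 4.45% rose and 4.98% fell. Of 16 alveolar type 1 genes 4 rose and 2 fell, among them Rtkn2 and Clic5 with log2 fold changes of 0.28 (SE 0.067) and 0.28 (SE 0.076). Without animals 5, 7 and 16 these were 0.22 and 0.25, and none of the list rose and 1 fell, as with the scores. Of 29 endothelial genes 4 rose and 2 fell, and 1 rose and 2 fell without animals 5, 7 and 16. Gja4, an arterial gap junction protein, had 38.7 to 46.3 CPM (median 40.9) at 28 days and 57.9 to 68.5 CPM (median 64.5) at 1 day. Of 24 fibroblast genes 6 fell and 3 rose, and the receptors for platelet-derived growth factor went opposite ways, Pdgfra with a log2 fold change of 0.54 (SE 0.092) and Pdgfrb with -0.32 (SE 0.066). Of 24 T cell, 18 cytotoxic cell, 15 MHC class II, 38 ribosomal and 28 complex I genes, 0 passed in either direction, against 9.43% of all genes tested. Airway genes had values above 0 without passing for the most part. Of 21 ciliated cell genes 20 had values above 0 and 0 passed, with a median of 0.40. Values above 0 were held by 49.5% of all genes tested. The mucin Muc5b spanned 5.97 to 118 CPM (median 51.7) at 28 days, high in 3 animals and low in 3, against 5.32 to 25.7 CPM (median 12.8) at 1 day. It passed with an edgeR adjusted p of 0.0267 but not without animal 5 (0.0537).

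Interferon response, liver and erythroid genes had fewer calls without animal 5, or without animals 5, 7 and 16, which had the highest liver sums at 1 day. Interferon response genes fell in 7 of 44 tested, with a median of -0.19. Rsad2, an antiviral enzyme, had 28.4 to 149 CPM (median 86.3) at 28 days and 55.97 to 1937 CPM (median 218) at 1 day, where animal 5 alone had 1937 CPM. Without animal 5 the number was 1 of 44 and the median -0.17, and without animals 5, 7 and 16 it was 0 with a median of -0.19. Rsad2 itself had a log2 fold change of -2.49 with all animals and -1.06 without animal 5, and Cmpk2, an interferon-induced nucleotide kinase, -0.70 and -0.44. Oasl, Mx1 and Rtp4 had log2 fold changes of -0.67, -0.62 and -0.50, and without animals 5, 7 and 16 of -0.68, -0.63 and -0.54. Rsad2 counts in the single schedule were also 0.673 to 1.03 times those of the animals of like number order in the repeated schedule, as Alas2 counts were. Liver transcripts fell in 7 of 12 with a median of -2.48, led by Ttr and Alb, and in 0 of 12 with a median of -0.70 without animals 5, 7 and 16. Alb, serum albumin, had 8.105 to 15.8 CPM (median 9.05) at 28 days and 11.8 to 285 CPM (median 108) at 1 day. Erythroid genes fell in 9 of 16 with a median of -2.02 and, without animal 5, in 3 of 16 with a median of -0.76. These 3 were the hemoglobin genes Hba1, Hba2 and Hbb, with log2 fold changes of -0.91, -1.15 and -1.62 with all animals. Without animals 5, 7 and 16 they had -1.02, -1.16 and -1.31, and all 3 still passed. The part of other tissues in these lists was not tested further. Of 24 cholesterol synthesis and uptake genes 5 fell and 0 rose, led by Hmgcs1 with 66.96 to 97.5 CPM (median 83.5) at 28 days and 112 to 148 CPM (median 116) at 1 day. Without animals 5, 7 and 16 none passed, but the median was -0.18 with fewer animals, against -0.19 with all.

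The air lungs of the single schedule gave the time difference in animals that had breathed filtered air, none of them shared with the oil vapor lungs. There 481 of 14820 genes passed (3.25%), 332 lower (2.24%) and 149 higher (1.01%) at 28 days. Of the 738 genes lower in oil vapor lungs, 666 (90.2%) also had values below 0 in air and 233 passed there, which is 31.6% of the oil vapor genes and 70.2% of the 332 air genes. Of the 660 genes higher in oil vapor lungs, 595 (90.2%) had values above 0 in air and 95 passed, 14.4% of the oil vapor genes and 63.8% of the 149 air genes. Over all 14820 genes 50.8% had values above 0 in air. Of all genes 1 passed in opposite directions. The median air log2 fold change was -0.25 for the oil vapor genes that fell and 0.16 for those that rose, against -0.45 and 0.34 in oil vapor. Across all 14820 genes the log2 fold changes of the oil vapor and air lungs had a Pearson r of 0.109 and a Spearman rho of 0.329; the groups share no library, and genes are not independent replicates.

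Cell division and matrix genes were lower at 28 days in the air lungs as well. The mitosis list had 28 of 74 genes lower and 0 higher with a median of -0.70, DNA replication 6 of 52 with a median of -0.25, and the 6 matrix lists 49 of 136 lower and 0 higher with a median of -0.24. The lists were chosen with earlier results of these data known, so these counts describe the air lungs and are not a separate test. Eln had 387 to 730.2 CPM (median 428) in air lungs at 28 days and 932 to 1474 CPM (median 1186) at 1 day, a log2 fold change of -1.29 (SE 0.14). Col3a1 had an air log2 fold change of -1.04 (SE 0.10), Loxl2 of -0.91 (SE 0.097), Mki67 of -0.83 (SE 0.11) and Cdk1 of -1.07 (SE 0.17). Genes higher at 28 days had these values in air. Txnip had an air log2 fold change of 0.31 (SE 0.056), Inmt of 1.26 (SE 0.24), Per1 of 0.48 (SE 0.29) and Zbtb16 of 0.32 (SE 0.46). Of the glucocorticoid list 1 of 17 rose in air, with a median of 0.43, and of the immediate early genes 6 of 24.

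The difference between both time changes, oil vapor minus air, was tested for every gene. In edgeR 0 of 14820 genes passed (0%), with 1160 at an unadjusted p below 0.05 and a smallest adjusted p of 0.0572, so no gene's time change was shown to differ between oil vapor and air lungs. DESeq2 called 49 genes and edgeR without a filter on low counts called 11. The 5 genes of smallest p were the liver genes Ttr, Alb, Pzp, Apob and Cps1, with adjusted p-values of 0.0572 to 0.0688. For Alb the difference was -6.20 (SE 1.13). It was -3.61 in oil vapor lungs and 2.58 in air lungs, where animal 17 at 28 days had 1459 CPM of summed liver transcripts. For Per1 the difference was 1.01 (SE 0.41) with an edgeR adjusted p of 0.573.

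**Figure D5:**
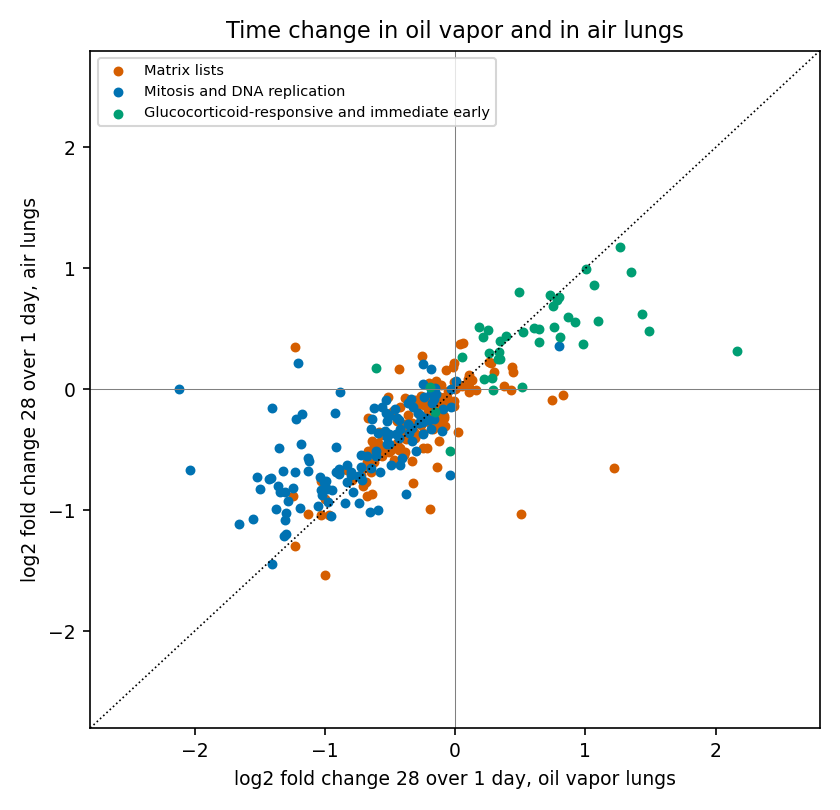
Each point is a gene, with its log2 fold change of 28 days over 1 day in oil vapor lungs on the x axis and in air lungs on the y axis; the dotted line marks equal change. Mitosis and DNA replication genes (blue) and matrix genes (orange) lie mainly at the lower left, with mitosis medians of -0.93 in oil vapor and -0.70 in air lungs, and glucocorticoid-responsive and immediate early genes (green) at the upper right.

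In oil vapor lungs of the repeated schedule 51 of 15005 genes passed between 28 days and 1 day (0.34%), 14 lower (0.0933%) and 37 higher (0.247%). Of 732 single-schedule genes that fell and were tested there, 502 (68.6%) had values below 0 and 3 passed, and the medians were -0.44 in the single and -0.078 in the repeated schedule. Of 659 that rose, 432 (65.6%) had values above 0 and 9 passed, with medians of 0.34 and 0.065. Over all 15005 genes tested in the repeated schedule 47.6% had values above 0. The difference between the schedules was tested in 15322 genes and 142 passed (0.927%), 82 with a more negative (0.535%) and 60 with a more positive (0.392%) change in the single schedule. They included 67 of the 738 genes that fell in the single schedule and 45 of the 660 that rose. The sign of the difference in these genes is largely set by that choice, since it holds the single-schedule change. The rats of the repeated schedule were about 4 weeks further from the outset at each lung collection, so schedule and age cannot be told apart.

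Eln averaged 536 ± 32.6 CPM at 28 days and 1256 ± 226 CPM at 1 day in the single schedule, and 469.8 ± 85.02 and 479.9 ± 122 CPM in the repeated schedule. The difference was -1.19 (SE 0.20) with an edgeR adjusted p of 0.0026. Sparc had a difference of -0.67 (SE 0.12) and a repeated-schedule log2 fold change of 0.0042, and Thbs1, a matricellular protein, -0.95 (SE 0.17). Dcn went the other way, with a difference of 1.38 (SE 0.23). It averaged 163 ± 40.5 and 97.7 ± 15.97 CPM at 28 days and 1 day in the single schedule and 103 ± 21.2 and 158 ± 39.03 CPM in the repeated schedule.

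Of 72 mitosis genes tested in the repeated schedule 0 passed, and their median was -0.45. Between schedules 2 of 76 differed between schedules, both more negative in the single schedule; these were Cdca3 and Cdc20, an activator of the anaphase-promoting complex. The library of animal 43, from the repeated schedule at 1 day, held 1.54 M counts, fewer than any other of the 48, with 31440 CPM of marrow and 4373 CPM of mitosis transcripts, against 625.6 to 892.6 CPM of mitosis transcripts in the other 5 of its group. Without it the median of the repeated schedule was -0.20 and 11 mitosis genes differed between schedules. In all genes 156 then passed in the repeated schedule and 298 differed between schedules. The difference for Cdk1 was -1.09 (SE 0.32) with an adjusted p of 0.0672, and -1.39 with 0.0012 without animal 43, by edgeR. The part of that library in the results was not tested further.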

How the data were processed

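Lung RNA (1 μg) was depleted of ribosomal RNA and made into stranded libraries with 12 PCR cycles, per the labels' protocols. The submitters' processing notes name bcl2fastq 2.19, Trimmomatic 0.35, HISAT2 2.1.0, SAMtools 1.8, HTSeq 0.6.1 and the rat build Rnor_6.0. Neither the annotation used nor whether HTSeq counted by strand is given in the sources used here, and genes that overlap on opposite strands may share reads. The authors deposited raw counts per gene in 2 tables, 1 per schedule, of 24 libraries and 30045 genes each, of which 5463 were at 0 in every library. There were 0 columns that belonged to no sample. The description of animal 32 names the other table, and its title and column place it in the single schedule.

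Counts were tested with edgeR 4.0.16 in R 4.3.3 (TMM normalization, filterByExpr, quasi-likelihood test, Benjamini-Hochberg adjustment over all genes tested, threshold 0.05). The oil vapor and air time differences and their difference came from a fit of the 24 single-schedule libraries, the repeated schedule from its own 24, and the schedule difference from all 48. Per-gene CPM used the library totals and normalization factors of the 48 libraries. Standard errors were computed as log2 fold change over the root of F. Alternatives used DESeq2 1.42.0, limma 3.58.1 and sva 3.50.0. The scripts were tested on simulated counts with known changes.

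Named genes were the 15 of smallest p in each direction with a mean of at least 1 CPM and a gene symbol, the 2 to 6 members of smallest p of each list described, and the 5 of smallest p of each difference. A gene that this rule names is not reported here. Other genes named were chosen after their values were seen, namely Clspn, Ube2c, Tk1, E2f2, P4ha1, P4ha2, Cdc20 and the lung markers Sftpc and Ager. The lists, the animals left out and the comparison itself were chosen with earlier results of these data known. Replicates were separate animals. The 30 pairs of libraries within the oil vapor groups differed by a chi-square of 3.03 to 21.3 per gene, more than sampling noise, so all were kept. Promoter sequences are from RefSeq (GRCr8), and motifs other than the CHR and the CCAAT box were not used here.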

Additional observations from a re-analysis of the deposited data

Results flagged for a closer look

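Among 234 gene and day groups of the oil vapor lungs, 18 held an animal that stood apart from the other 5 by the gap to its neighbor, where chance gives about 1 in 20 groups (11.7 here). For Nid1 at 28 days, animal 27 had 346 CPM and the others 256 to 279 CPM. In Col3a1 at 1 day animal 7 stood at 5605 CPM, with the others at 4138 to 4608 CPM. Animal 27 had 223 CPM of Fstl1 at 28 days, where the others had 178 to 195 CPM. For Gprin3 at 1 day, animal 16 had 46.9 CPM and the others 57.5 to 61.9 CPM. In Jade2 at 28 days animal 29 stood at 109 CPM, with the others at 115 to 119 CPM. Animal 27 had 91.1 CPM of Adamts2 at 28 days, where the others had 69.6 to 74.1 CPM. For Fkbp10 at 28 days, animal 32 had 24.9 CPM and the others 30.2 to 32.7 CPM. In Vcan at 1 day animal 5 stood at 99.2 CPM, with the others at 60.9 to 75.1 CPM. Animal 7 had 148 CPM of Hmgcs1 at 1 day, where the others had 112 to 125 CPM. For Rsad2 at 1 day, animal 5 had 1937 CPM and the others 55.97 to 243 CPM. In Cmpk2 at 1 day animal 5 stood at 83.2 CPM, with the others at 34.5 to 45.7 CPM. Animal 5 had 5996 CPM of Alas2 at 1 day, where the others had 106 to 622 CPM. For Ube2c at 1 day, animal 5 had 45.7 CPM and the others 2.76 to 6.14 CPM. In Tk1 at 1 day animal 5 stood at 47.3 CPM, with the others at 10.6 to 15.1 CPM. Animal 28 had 46.6 CPM of E2f2 at 28 days, where the others had 26.3 to 30.6 CPM. For E2f2 at 1 day, animal 5 had 221 CPM and the others 36.9 to 50.5 CPM. In Thbs1 at 1 day animal 14 stood at 320.4 CPM, with the others at 249.8 to 269 CPM. Animal 27 had 4.96 CPM of Cdc20 at 28 days, where the others had 2.53 to 3.405 CPM. Of these 18, 7 were animal 5 and 4 animal 27.

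Among 117 genes examined, 28 had a time change that differed between the single and the repeated schedule in a test of the difference (single minus repeated, log2 scale, 48 libraries). Over all genes 142 of 15322 passed (0.927%). The 117 were largely chosen by small p in the single-schedule contrast, which is part of the difference, or by small p of the difference itself. Their share of calls and the signs below are therefore largely set by that choice. The 20 with a more negative change in the single schedule had differences of Adamts17 -0.81 (SE 0.17), Loxl2 -0.89 (SE 0.17), Scn3b -1.10 (SE 0.22), Pxdn -0.52 (SE 0.11), Fbn1 -0.56 (SE 0.13), Sparc -0.67 (SE 0.12), Fstl1 -0.39 (SE 0.094), Eln -1.19 (SE 0.20), Igsf10 -0.79 (SE 0.15), Fkbp10 -0.59 (SE 0.15), Colgalt1 -0.39 (SE 0.079), Ltbp2 -0.72 (SE 0.17), Lamc1 -0.35 (SE 0.068), Mmp14 -0.64 (SE 0.12), Mest -1.68 (SE 0.36), Msmo1 -0.58 (SE 0.14), Cdca3 -1.72 (SE 0.43), Loxl1 -0.83 (SE 0.18), Thbs1 -0.95 (SE 0.17), Cdc20 -1.31 (SE 0.27). The 8 with a more positive change had differences of Txnip 0.54 (SE 0.10), Syne1-2 0.37 (SE 0.083), Lrrc32 0.86 (SE 0.18), Inmt 1.27 (SE 0.30), Mcl1 0.56 (SE 0.12), Dcn 1.38 (SE 0.23), Klf4 0.75 (SE 0.20), Rora 0.29 (SE 0.076). Their edgeR adjusted p-values were 0.0026 to 0.0488. All 28 still passed with the same sign without animal 43, with a highest adjusted p of 0.035.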

How the results depend on the processing

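Of the 30 genes of smallest p, 10 passed under all 22 alternatives and all 30 under every one but the 1.5-fold minimum, and 0 reversed. The count of 1398 genes in oil vapor lungs (660 higher, 738 lower) became 787 (332 higher, 455 lower) with scores of liver, heart and marrow transcripts, of which 680 were among the 1398. It was 533 (214 higher, 319 lower) without animals 5, 7 and 16, of which 506 were among the 1398, a fit with fewer animals, and 20 (2 higher, 18 lower) with a 1.5-fold minimum. Leaving out 1 animal in turn gave 1074 to 1340 genes, 493 to 630 higher and 581 to 715 lower. The lower share of calls was 52.8%, and it was 57.8% with the scores, 59.8% without the 3 animals and 90% with the minimum. In air lungs 6 genes passed the 1.5-fold minimum. Oil vapor minus air gave 11 genes with no filter on low counts and 49 with DESeq2, against 0. The repeated schedule gave 23 with no filter, 366 with DESeq2 and 156 without animal 43, against 51, and the schedule difference 68, 379 and 298, against 142. Alas2 was 0.048 with the scores (edgeR adjusted p = 0.619), against -2.34. The marrow score is mostly Alas2 itself, so a value near 0 was set in advance and shows nothing about this gene. No paired analysis was made, because each animal number occurs once and no label joins animals across groups. The number order in which Alas2 and Rsad2 counts tracked across schedules was not fitted as a block. The test of the schedule difference therefore treats all 48 libraries as independent, also for such genes. Totals of 4.01 to 7.16 M counts limit genes near 3 counts.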
